A study of Mus musculus with 6 samples.

Results

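The genes described here are 10 regulators of the G1 phase of the cell cycle, taken by symbol from the deposited table through its gene identifiers: the D cyclins Ccnd1, Ccnd2 and Ccnd3, the kinases Cdk4, Cdk6 and Cdk2, the retinoblastoma or pocket protein genes Rb1, Rbl1 and Rbl2, and the INK4 inhibitor gene Cdkn2c. All 10 had a row among the 56750 rows of the deposited table, and all 10 passed the filter on low values that left 13496 genes for testing. Expression was measured by RNA sequencing in bone marrow cells sorted as LSK (Lin- Sca1+ cKit+), a fraction of C57BL/6 mouse marrow in which blood stem cells and early progenitors are found. DIC, for DSS-induced colitis, is the group of 3 libraries from mice given 2.5% dextran sulfate sodium (DSS) for 5 days, a chemical injury of the colon that causes intestinal inflammation. The control group has 3 libraries, the labels give no other treatment for it, and both groups share strain, tissue and sort. Age and sex are not given in the sources used here. Library names (DIC 1, 2, 3; control 1, 2, 4) carry the number of the deposited column. Values are TPM, a transcript-per-total unit in which the authors' tool divides reads by transcript length and scales each library to the same total, so levels can be compared between genes.

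In early G1, mitogen signals raise D cyclins, which activate Cdk4 and Cdk6. These kinases, followed by Cdk2 with E cyclins, phosphorylate the pocket proteins, which otherwise hold E2F transcription factors in check, and phosphorylation frees E2F to switch on genes for S phase. INK4 proteins such as the product of Cdkn2c bind Cdk4 and Cdk6 and block them. In the blood system this pathway is known for setting how readily stem cells leave quiescence: Cdk6 is linked to exit from quiescence in stem cells, and Cdkn2c to restraint of their self-renewal.

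None of the 10 genes passed the test between DIC and control (0 of 10 by limma on log2(TPM + 1), Benjamini-Hochberg adjusted over all tested genes, threshold 0.05). Of all tested genes, 0.037% passed as higher in DIC and 0.0222% as lower, 0.0593% in all, and the adjusted p of the 10 ran from 0.231 to 0.775. Their log2 fold changes, DIC minus control, lay between -0.38 and 0.41, 5 positive and 5 negative, with a median of 0.02 beside -0.08 for all tested genes. At an unadjusted p under 0.05 there was 1 of the 10, Cdk4, against 20.2% of all tested genes. The groups did not overlap for 2 of the 10, Cdk4 being lower and Rbl2 higher in DIC, against 25.5% of all tested genes. These shares are close to or below the background, so they show nothing particular to the 10 genes. The width of the 95% intervals differed between genes, from -0.35 to 0.20 for Rbl1 to -1.08 to 0.41 for Ccnd2 on the log2 scale.

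**Figure D1:**
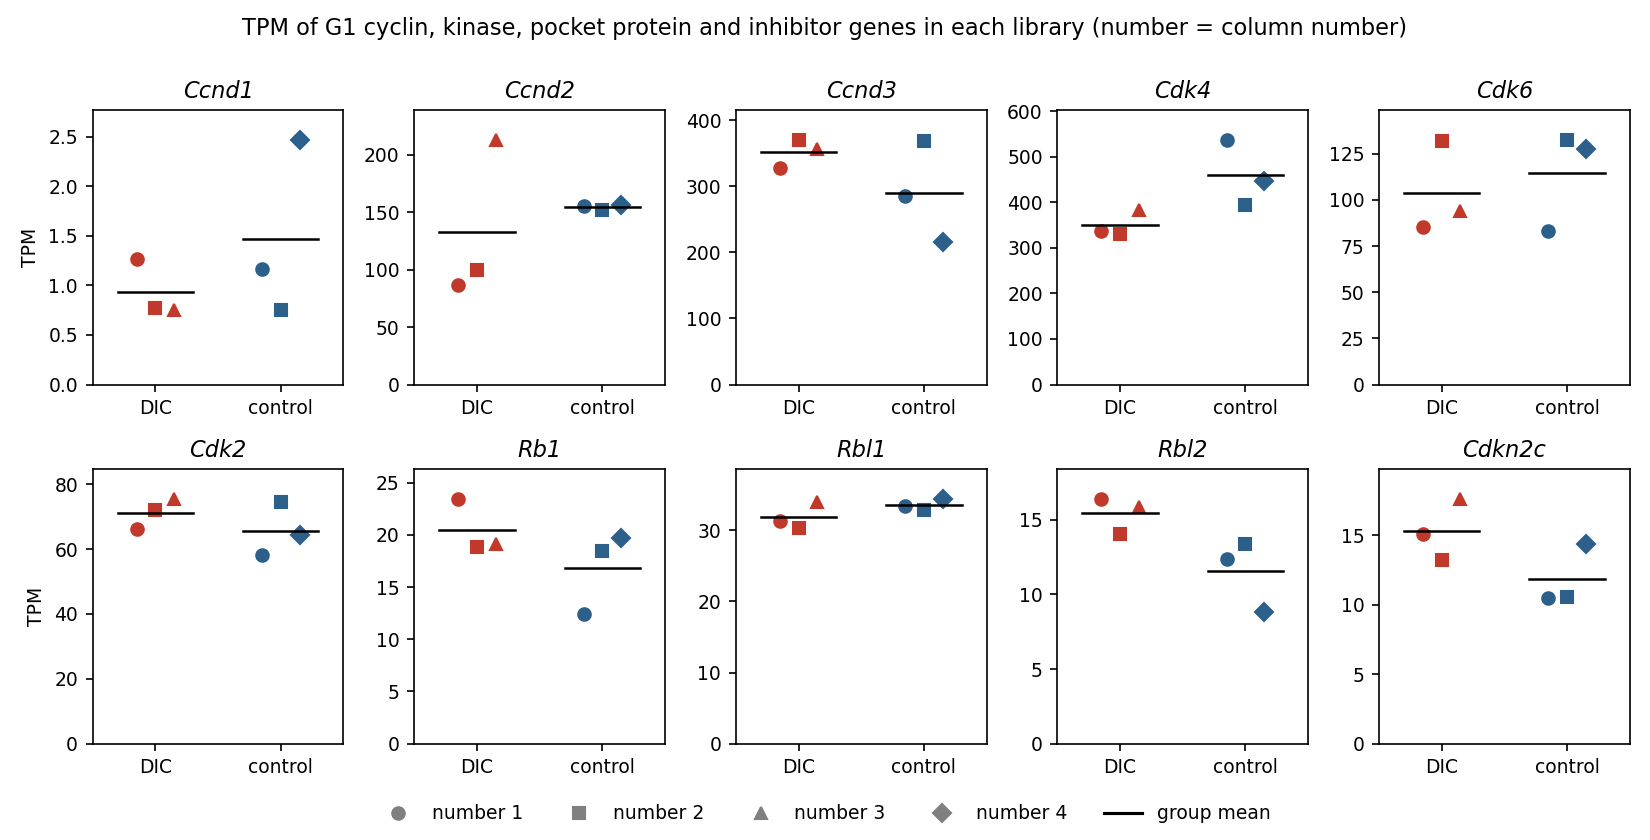
TPM (linear axis from 0) of the 10 genes in each of the 6 libraries, DIC in red and control in blue, with the symbol giving the library number and the line the group mean. Cdk4 and Rbl2 are the genes whose groups do not overlap, and Ccnd2 is at 152.13 to 156.29 in the controls but at 86.40 to 212.96 in DIC.

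The libraries differed in more than the group, and this touches every result below. The 15 neutrophil markers summed to 15.6% to 22.8% of all TPM in DIC and to 3.04%, 4.27% and 12.7% in controls 4, 1 and 2, and all 15 had positive fold changes. In these bulk libraries, fewer cells of a type and less RNA per cell cannot be told apart. Every one of the 6 basophil and mast cell markers was lower in DIC without overlap (against 18.4% of all tested genes), with summed levels of 314 to 498 TPM against 946 to 3374. All 6 tested B cell markers and all 4 tested T and NK cell markers also had negative fold changes. The background is 7889 negative and 5607 positive among all 13496 tested genes. The T cell genes Cd3d and Cd3e did not pass the filter. Cd3d was at 0.89 to 2.08 TPM in DIC against 0.61 to 0.98 in control, and Cd3e at 0.00 to 1.09 against 0.05 to 1.57. All 8 erythroid markers had positive fold changes, with sums of 632 to 1729 TPM in DIC against 480 to 700. Of the sort's own genes, Kit lay at 54.20 to 99.52 TPM and Ly6a, which encodes Sca1, at 15.50 to 49.91. Mpo, a granulocyte-monocyte gene, lay at 10026 to 13183. All 5 granulocyte-monocyte progenitor markers, Mpo among them, had negative fold changes (median -0.18). Together they made 2.57% to 3.22% of TPM in DIC and 2.99% to 3.41% in control. The 12 LSK and stem cell markers together made 0.0366% to 0.0432% of TPM in DIC and 0.0485% to 0.0577% in control. Of the 11 tested, 5 had positive and 6 negative fold changes. Markers of several cell types were present in these bulk libraries, so the levels of the G1 genes cannot be placed in stem cells. The part of other cell types in the differences was not tested. The labels give 3 mice per group but do not tie each library to 1 mouse, so a p-value speaks only of the spread among these libraries, which may be technical.

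Of the D cyclins, Ccnd3 and Ccnd2 were abundant and Ccnd1 barely detected. Ccnd3 (ENSMUSG00000034165) encodes the D cyclin that pairs with Cdk6 in many developing blood cells. It was at 328.13, 370.31 and 356.83 TPM in DIC 1 to 3 and at 284.51, 368.60 and 216.04 in controls 1, 2 and 4. Control 2 was level with DIC 2, so the groups overlapped, and control 4 was the lowest library. The means were 352 ± 21.5 and 290 ± 76.4 TPM (SD, n = 3 each), and the log2 fold change was 0.31 ± 0.20 (SE; limma adjusted p = 0.405). It was 0.12 without control 4, 0.50 without control 2 and 0.57 after quantile normalization. With a covariate for the neutrophil score, the mean log2 level of the neutrophil markers, it was -0.14. Of these 15 markers 12 were higher in DIC without overlap, against 7.08% of all tested genes. With 6 libraries, a fit with this score thus separates it poorly from the group, here and below.

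Ccnd2 (ENSMUSG00000000184), a D cyclin that responds to growth factors and cytokines, was at 86.40, 99.54 and 212.96 TPM in DIC 1 to 3. The controls were close together at 155.15, 152.13 and 156.29 TPM. DIC 1 and 2 thus lay below every control and DIC 3 above every control. The means were 133 ± 69.6 and 155 ± 2.15 TPM (SD, n = 3 each), and the log2 fold change was -0.33 ± 0.32 (SE; limma adjusted p = 0.568). Without DIC 3 it was -0.73 (limma adjusted p = 0.416), and without DIC 1 it was -0.08, so the size of this difference rests on single libraries.

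Ccnd1 (ENSMUSG00000070348), the D cyclin best known from solid tissues and tumors, was at 1.27, 0.77 and 0.75 TPM in DIC 1 to 3 and at 1.17, 0.75 and 2.47 in controls 1, 2 and 4. It reached 1 TPM in 3 of 6 libraries, the smallest number that the filter allowed. Its log2 fold change of -0.30 ± 0.31 (SE; limma adjusted p = 0.603) is on the log2(TPM + 1) scale, which shrinks differences of genes this low, and it was -0.02 without control 4. In the GENCODE M21 annotation 23.4% of its exon bases also lie in exons of LTO1 on the opposite strand, which was at 9.35 to 15.25 TPM. The library kit does not mark strand, so reads of the 2 genes cannot be told apart over those bases.

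Cdk4 (ENSMUSG00000006728), the main partner of D cyclins, was the most abundant of the 10 genes and the one with the lowest p. Its promoter is shown because it carries the E-box CACGTG, the word that MYC with its partner MAX recognises, 4 times in the 250 bases before the start. The sequence is RefSeq's (GRCm38.p6, chr10:127063285-127063534, plus strand), with the E-boxes in capitals, which begin 172, 118, 98 and 11 bases before the start.
Cdk4: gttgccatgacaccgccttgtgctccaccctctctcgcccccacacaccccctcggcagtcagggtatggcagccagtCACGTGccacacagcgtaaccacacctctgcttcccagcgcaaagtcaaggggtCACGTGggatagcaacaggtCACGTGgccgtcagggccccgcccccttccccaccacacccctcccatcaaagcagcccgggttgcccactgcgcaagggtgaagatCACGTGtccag

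The E-box reads the same on both strands. Of 32851 promoters in the RefSeq table, each from 250 bases before to 50 after a start, 7.15% hold at least 1 E-box and 0.0244% (8 promoters) at least 4. The table held 7 of the 10 genes with 9 promoters, and among the others Cdk6 and the second start of Cdkn2c have 1 E-box each. Another word searched, the CHR element TTTGAA of cell cycle genes, is in 17.9% of all promoters and in that of Rbl2 alone among the 7 genes. Such matches describe the sequence and are not evidence of binding.

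In the libraries, Cdk4 was at 337.71, 330.42 and 382.16 TPM in DIC 1 to 3 and at 537.11, 394.33 and 445.73 in controls 1, 2 and 4. Every DIC library lay below every control, and DIC 3 and control 2 were nearest to each other. The means were 350 ± 28.0 and 459 ± 72.3 TPM (SD, n = 3 each). The log2 fold change of -0.38 ± 0.15 (SE) had a 95% interval from -0.74 to -0.02, and the gene did not pass (limma unadjusted p = 0.0393, adjusted p = 0.231). With 1 library left out, the difference ran from -0.48 (without control 2) to -0.26 (without control 1). It was -0.46 with the column number as a block, and smaller than reported in some other settings. It was -0.09 after quantile normalization (limma adjusted p = 0.679), and -0.22 with the neutrophil score as a covariate. With the neutrophil markers removed and TPM rescaled it was -0.17, or -0.28 relative to the median of all tested genes, which this scaling moved from -0.08 to 0.10. Exons of Tspan31 on the opposite strand cover 19.7% of the exon bases of Cdk4. Tspan31 was at 50.28 to 56.70 TPM in DIC and at 74.95 to 98.73 in control, lower as well (log2 fold change -0.75, limma adjusted p = 0.212).

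Cdk6 (ENSMUSG00000040274), the other kinase of the D cyclins, was at 85.14, 132.15 and 94.17 TPM in DIC 1 to 3 and at 82.91, 132.63 and 127.70 in controls 1, 2 and 4. The groups covered the same range, with DIC 2 and control 2 level and control 1 lowest. The log2 fold change was -0.13 ± 0.24 (SE; limma adjusted p = 0.775), and it was 0.03 after quantile normalization and 0.07 after rescaling without neutrophil markers. With 1 library left out it ran from -0.35 (without control 1) to -0.01 (without DIC 1 or control 2).

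Cdk2 (ENSMUSG00000025358), the kinase of E and A cyclins, is one of 2 genes with an E2F word among the 7 whose promoters could be searched. Ccnd1, Ccnd2 and Rb1 had no promoter in the RefSeq table. The words searched on both strands were TTTCCCGC, TTTCGCGC, TTTGCCGC and TTTGGCGC, and 2.26% of all promoters hold at least 1 of them. The word in Cdk2 is the first of them read on the other strand. The other is Rbl1, itself a partner of E2F factors. Both stretches are RefSeq's on GRCm38.p6, minus strand, with the E2F word in capitals: chr10:128705144-128705231 for Cdk2, where it begins 140 bases before the start, and chr2:157204535-157204592 for Rbl1, where it begins 18 bases before.
Cdk2: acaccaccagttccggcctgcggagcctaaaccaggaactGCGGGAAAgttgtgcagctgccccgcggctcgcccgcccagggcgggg
Rbl1: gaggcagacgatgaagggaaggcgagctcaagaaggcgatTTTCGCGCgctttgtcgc

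Cdk2 was at 66.15, 72.12 and 75.48 TPM in DIC 1 to 3 and at 58.10, 74.54 and 64.28 in controls 1, 2 and 4. The groups overlapped, and the log2 fold change was 0.12 ± 0.13 (SE; limma adjusted p = 0.626). With 1 library left out it ran from 0.04 (without control 1) to 0.22 (without control 2), and it was 0.33 after rescaling without neutrophil markers.

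**Figure D2:**
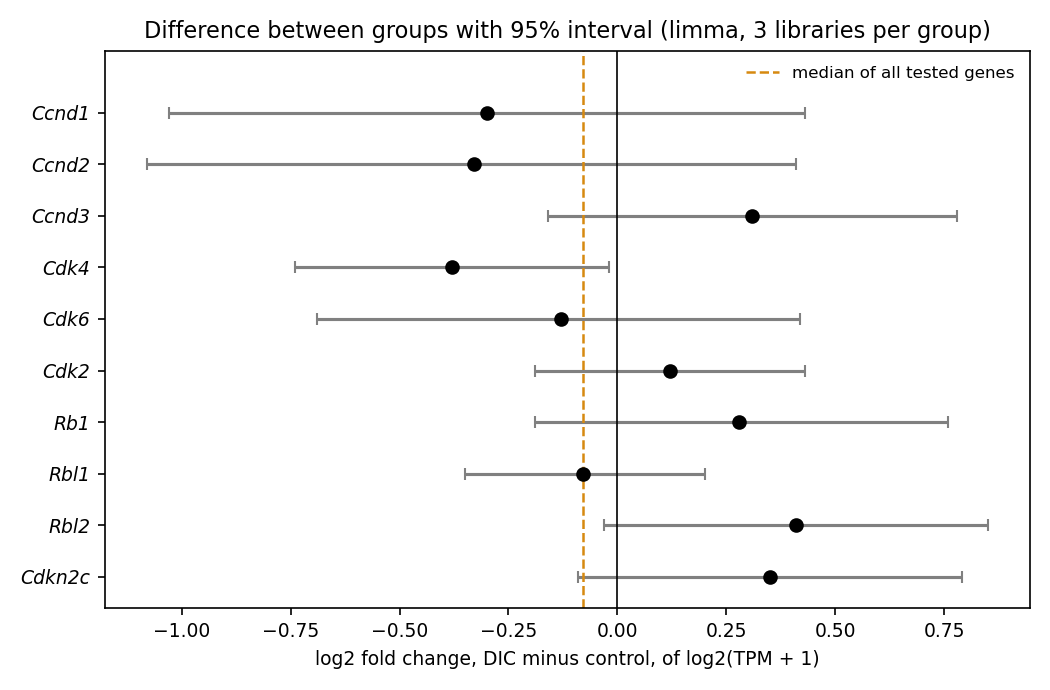
Log2 fold change (DIC minus control) of the 10 genes as points with 95% intervals from limma; the dashed line is the median of all tested genes at -0.08. The interval of Cdk4, from -0.74 to -0.02, is the one that leaves out 0, and the others include it.

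None of the 3 pocket protein genes passed the test. Rb1 (ENSMUSG00000022105), the retinoblastoma tumor suppressor, was at 23.46, 18.86 and 19.09 TPM in DIC 1 to 3 and at 12.43, 18.50 and 19.68 in controls 1, 2 and 4. Control 1 was low and control 4 lay inside the DIC range, and the log2 fold change was 0.28 ± 0.20 (SE; limma adjusted p = 0.449). Without control 1 it was 0.09. On the opposite strand, exons of Rcbtb2 share 8.11% of the exon bases of Rb1 and those of Lpar6 6.78%. Rcbtb2 lay at 38.85 to 47.87 TPM and Lpar6 at 6.87 to 12.22.

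Rbl1 (ENSMUSG00000027641), which encodes p107, a pocket protein of cycling cells, had the narrowest range of the 10 genes relative to its level. It was at 31.27, 30.29 and 33.98 TPM in DIC 1 to 3 and at 33.39, 32.90 and 34.42 in controls 1, 2 and 4. The log2 fold change was -0.08 ± 0.12 (SE; limma adjusted p = 0.737) with a 95% interval of -0.35 to 0.20, and it was 0.13 after rescaling without neutrophil markers.

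Rbl2 (ENSMUSG00000031666) encodes p130, the pocket protein of quiescent cells. It was at 16.41, 14.07 and 15.85 TPM in DIC 1 to 3 and at 12.37, 13.40 and 8.85 in controls 1, 2 and 4. Every DIC library lay above every control, with DIC 2 and control 2 apart by less than 1 TPM. The means were 15.4 ± 1.22 and 11.5 ± 2.39 TPM (SD, n = 3 each). The log2 fold change of 0.41 ± 0.19 (SE) had a 95% interval from -0.03 to 0.85 and did not pass (limma adjusted p = 0.27). It was 0.24 without control 4 and -0.04 with the neutrophil score as a covariate (limma adjusted p = 1). Exons of Aktip on the opposite strand share 9.17% of its exon bases, and Aktip lay at 8.74 to 15.37 TPM.

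Cdkn2c (ENSMUSG00000028551), which encodes the INK4 protein p18, was at 15.06, 13.18 and 17.61 TPM in DIC 1 to 3 and at 10.46, 10.57 and 14.39 in controls 1, 2 and 4. Control 4 lay between DIC 2 and DIC 1, so the groups overlapped. The means were 15.3 ± 2.22 and 11.8 ± 2.24 TPM (SD, n = 3 each), and the log2 fold change was 0.35 ± 0.19 (SE; limma adjusted p = 0.324). Its fold change stayed between 0.25 and 0.55 in every alternative run.

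Ordered by mean TPM over the 6 libraries, the 10 genes ran from Cdk4 (405) through Ccnd3 (321), Ccnd2 (144), Cdk6 (109), Cdk2 (68.4), Rbl1 (32.7), Rb1 (18.7), Cdkn2c (13.5) and Rbl2 (13.5) to Ccnd1 (1.2). The ranges of neighbours overlapped for Cdk4 and Ccnd3, for Ccnd2 and Cdk6, for Rb1 and Cdkn2c and for Cdkn2c and Rbl2, and did not overlap for the other 5 neighbouring pairs. The 20 cyclin genes compared here were a selection of the family. Among them, Ccnd3 and Ccnd2 had the highest and the next highest mean, and Ccnd1 had the lowest. The place of Ccnd2 rests on DIC 3 and the controls: its DIC mean of 133 TPM lay below the 138 of the mitotic Ccnb1 (139 over all 6), which was at 145.91 and 128.36 in DIC 1 and 2. Among the 18 cyclin-dependent kinase genes listed, also a selection, Cdk4 was highest, followed by the mitotic Cdk1 (257). Cdk6 (109) and Cdk9 (104) came next with ranges that overlapped, ahead of Cdk2.

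Ratios within a library do not depend on how its TPM was scaled, and 8 of them were compared. Ccnd3 made 78.9%, 78.7% and 62.5% of the summed D cyclin TPM in DIC 1 to 3, against 64.5%, 70.7% and 57.6% in controls 1, 2 and 4, while Ccnd1 never exceeded 0.659%. DIC 1 and 2 had the highest Ccnd3 shares, and DIC 3 lay among the controls. The log2 ratio of Ccnd2 to Ccnd3 was -1.52 ± 0.67 in the DIC libraries against -0.87 ± 0.40 in the controls (SD, n = 3 each; exact permutation test, two-sided, p = 0.3, adjusted p = 0.6).

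For the kinases, the ratio of Cdk2 to Cdk4 separated the groups. Its log2 value was -2.35, -2.20 and -2.34 in DIC 1 to 3, against -3.21, -2.40 and -2.79 in controls 1, 2 and 4. The difference was 0.51, and its exact two-sided permutation p of 0.1 (adjusted p = 0.4 over 8 ratios) is the smallest that 3 against 3 libraries can give. The DIC libraries lay within an SD of 0.09, and control 2 was next to them. Cdk6 relative to Cdk4 overlapped between groups (log2 ratio -1.78 ± 0.39 in DIC libraries against -2.02 ± 0.59 in controls, SD, n = 3 each, exact permutation p = 0.6).

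Of the pocket proteins, Rbl1 relative to Rbl2 also separated the groups. Its log2 ratio was 0.93, 1.11 and 1.10 in DIC 1 to 3, against 1.43, 1.30 and 1.96 in controls 1, 2 and 4. The difference was -0.52 (exact permutation p = 0.1, adjusted p = 0.4). Rb1 relative to Rbl2, the ratio of Cdkn2c to Cdk6 and both ratios with Ccnd1 overlapped between groups (exact permutation p from 0.3 to 0.8). The ratios share genes, so they are not independent of each other or of the fold changes above.

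**Figure D3:**
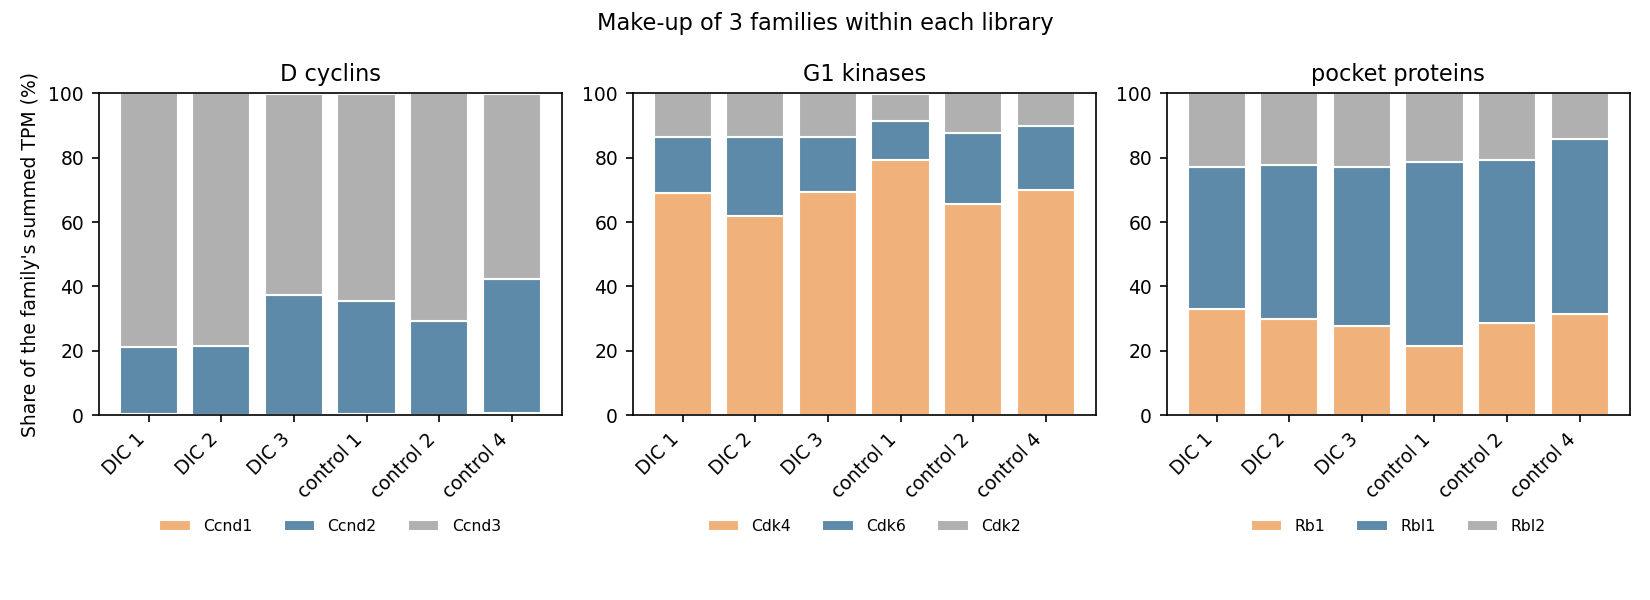
Share (%) of each gene in the summed TPM of its family, by library, for the D cyclins, the G1 kinases and the pocket proteins. Cdk2 takes 13.5% to 13.7% of the kinases in the DIC libraries and 8.57% to 12.4% in the controls, and Ccnd1 is too low to see in most bars.

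By the rule for likeness, the genes whose log2(TPM + 1) followed a D cyclin most closely over the 6 libraries were Ranbp10, Fam3c and Slc37a1 for Ccnd3 (Pearson r = 0.996, 0.995 and 0.994). For Ccnd2 they included Dnajb1 and Trrap (r = 0.979 and 0.978), and for Ccnd1 they were Polr3f, Brd8 and Cox18 (r = 0.995, 0.984 and 0.980). With 6 points that share the scaling of each library, r was over 0.95 for 65 of 6985 genes compared with Ccnd3, 8 of 6985 with Ccnd2 and 28 of 6986 with Ccnd1. Dnajb1, a heat-shock cochaperone, was at 37.0, 49.9 and 88.7 TPM in DIC 1 to 3 and at 63.2 to 65.1 in the controls.

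Around these 10 genes, 95 others of the pathway and of the cyclin and kinase families had a row, of which 92 were tested and 0 passed (in 4 every DIC value lay above every control and in 13 below, against 7.08% and 18.4% of all tested genes). At an unadjusted p under 0.05, 3 lay higher and 9 lower in DIC (against 6.43% and 13.8%). Their median log2 fold change was -0.01, with 43 positive and 49 negative. Among all 13496 tested genes 5607 were positive and 7889 negative, which is the background for the sign counts below. Of the 22 genes named from these lists, 11 had the other sign with the neutrophil score as a covariate, and 0 after quantile normalization or rescaling without neutrophil markers. As the score is poorly separated from the group, those 11 signs are poorly determined.

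Cyclins E and A and Cdc25a, which act next on Cdk2, had positive fold changes in 4 of 4 genes (median 0.37, 0 passed). Ccne1, which activates Cdk2, was at 33.42, 26.93 and 34.73 TPM in DIC 1 to 3 and at 29.66, 23.27 and 22.96 in controls 1, 2 and 4. Cdc25a, the phosphatase that removes inhibitory phosphates from Cdk2, was at 45.86 to 49.19 TPM in DIC and at 36.88, 47.40 and 25.51 in control. Both overlapped between groups (limma adjusted p = 0.315 and 0.309). With a covariate for the neutrophil score the median of these 4 genes was -0.01.

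Among the other inhibitors, Cdkn1a had the largest fold change of the pathway. It encodes p21, a CIP/KIP inhibitor of Cdk2 and a target of p53. It was at 6.48, 9.33 and 9.67 TPM in DIC 1 to 3 and at 55.38, 11.14 and 78.85 in controls 1, 2 and 4. Control 2 lay just above the DIC libraries and far below the other controls. The log2 fold change was -2.02 ± 0.65 (SE; limma adjusted p = 0.212), and without control 2 it was -2.84 and passed (limma adjusted p = 0.00997). In that run 1671 of the 13496 tested genes passed. The fold change of Cdkn1a was -1.48 without control 4 and 0.25 with the neutrophil score as a covariate. Cdkn2d, another INK4 gene, had the highest mean of these inhibitors, at 78.97 to 91.68 TPM in DIC and 64.50 to 81.16 in control (limma adjusted p = 0.337). Cdkn1b stayed at 1.87 to 6.93 TPM, and Cdkn2a and Cdkn2b were listed at 0 in all 6 libraries.

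The E2F and DP factors, the partners of the pocket proteins, had a median of 0.07 with 6 of 10 positive and 0 passed, and the median was -0.08 with the covariate. E2f2, an activator E2F, was at 17.36, 13.02 and 13.58 TPM in DIC 1 to 3 and at 7.40, 9.88 and 6.70 in controls 1, 2 and 4, without overlap. Its log2 fold change was 0.80 ± 0.20 (SE; limma adjusted p = 0.212), and with the neutrophil score as a covariate it was 0.26. Without control 2 it was 0.95 and passed (limma adjusted p = 0.0321), as 1671 of the 13496 tested genes did in that run. E2f1, another activator, went the other way, at 27.47, 37.08 and 31.15 TPM in DIC and 45.42, 40.39 and 39.79 in control (log2 fold change -0.39 ± 0.15 SE, limma adjusted p = 0.221).

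Genes that E2F drives in S phase had negative fold changes in 14 of 18 cases, with a median of -0.21 and 0 passed. Rpa2, a subunit of the single-strand DNA binding complex, was at 66.70 to 82.70 TPM in DIC and 88.65 to 110.74 in control, and Cdt1, a licensing factor of replication origins, at 41.79 to 51.86 against 53.25 to 67.09 (limma adjusted p = 0.221 and 0.228). The median was -0.02 after quantile normalization, and after rescaling without neutrophil markers it was -0.01. Of 10 mitotic genes 4 were positive (median -0.01, 0 passed), and the median was 0.19 after quantile normalization and 0.20 after that rescaling. Top2a, a topoisomerase, was at 125.77 to 139.68 TPM in DIC against 97.14 to 108.43, and the proliferation marker Mki67 at 46.18 to 55.13 against 32.68 to 42.09, both without overlap (limma adjusted p = 0.212 and 0.213).

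Upstream of the D cyclins, Myc was at 91.50, 102.64 and 98.70 TPM in DIC 1 to 3 and at 111.07, 133.96 and 119.35 in controls 1, 2 and 4, without overlap (log2 fold change -0.31 ± 0.12 SE, limma adjusted p = 0.226). Of all tested genes 18.4% were lower in DIC without overlap. The fold change of Myc was -0.13 after quantile normalization and -0.10 after rescaling without neutrophil markers. Its partner Max overlapped between groups, at 57.44 to 79.00 TPM against 40.16 to 64.42 (limma adjusted p = 0.414). The 4 genes of the CDK-activating kinase and of Cdc37, the chaperone that folds Cdk4, were all negative (median -0.18, 0 passed). The median was -0.04 after quantile normalization and 0.02 after rescaling without neutrophil markers. Mnat1, its assembly factor, was at 17.52 to 17.68 TPM in DIC and 20.41 to 23.11 in control, without overlap (limma adjusted p = 0.231), and Cdc37 was at 116.46 to 132.42 against 125.03 to 173.39 (limma adjusted p = 0.41).

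Ubiquitin ligases of G1 regulators had a median of 0.08 with 6 of 10 positive and 0 passed. The sign of that median was not stable: it was -0.04 without control 1, -0.06 without control 4, -0.10 with the covariate and 0.27 after rescaling. Fbxo4, an F-box protein, was at 4.96 to 6.39 TPM in DIC and 7.03 to 8.84 in control, and the scaffold Cul1 at 56.39 to 66.91 against 68.90 to 73.95, both without overlap (limma adjusted p = 0.233 and 0.272). In the DREAM and MuvB list, whose complex Rbl1 and Rbl2 join to repress cell cycle genes, 3 of 5 were positive (median 0.05, 0 passed), with a median of -0.12 without control 1 and -0.11 without control 4. Rbbp4 was at 222.29 to 263.55 TPM in DIC against 271.18 to 317.72, without overlap, and Lin37 at 31.34 to 36.73 against 32.84 to 50.58 (limma adjusted p = 0.285 and 0.414).

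**Figure D4:**
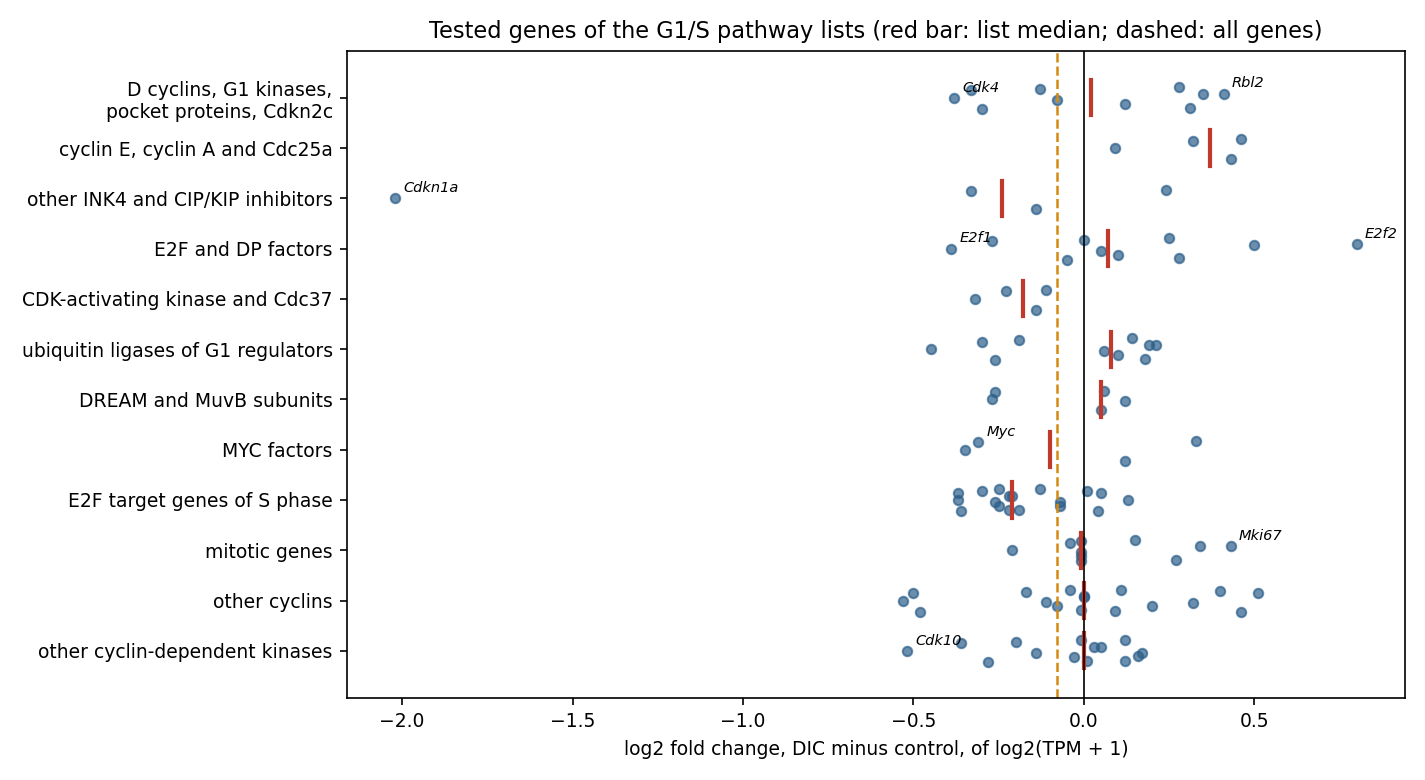
Log2 fold change (DIC minus control) of every tested gene in the lists; the red bar is the list median and the dashed line the median of all tested genes at -0.08. Cdkn1a at -2.02 and E2f2 at 0.80 lie outermost, and some genes stand in more than 1 list.

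Of the remaining cyclins 9 of 17 were positive (median 0.00, 0 passed), with Ccng2 at 30.27 to 38.66 TPM in DIC against 32.07 to 66.66 and Ccnf at 33.99 to 37.50 against 16.25 to 35.27 (limma adjusted p = 0.301 and 0.311). Of 14 other kinases tested 7 were positive (0 passed). Cdk10 was at 12.21 to 16.65 TPM against 17.08 to 25.42, without overlap, and Cdk9, a kinase of transcription elongation, at 85.62 to 98.20 against 96.74 to 137.28 (limma adjusted p = 0.221 and 0.248).

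Control 2 stood closer to the DIC libraries than the other controls did for several of these genes. It was the control nearest to the DIC group for Ccnd3, Cdk4, Cdk2, Rbl2, Cdkn1a and E2f2, and it was also the control with the highest neutrophil marker share, whose part in these values was not tested. Without control 2, 0 of the 10 genes passed although 1671 of the 13496 tested genes did. The smallest adjusted p among the 10 was 0.0624, for Cdk4 at -0.48 (limma). Of the 92 other pathway genes 5 passed without control 2, a smaller share than among all tested genes. They were Cdkn1a, Ccnl1 (-0.80), E2f2, Ccng2 (-0.83) and Pcna (-0.45), of which Ccnl1 and Pcna were named after their values were seen.

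**Figure D5:**
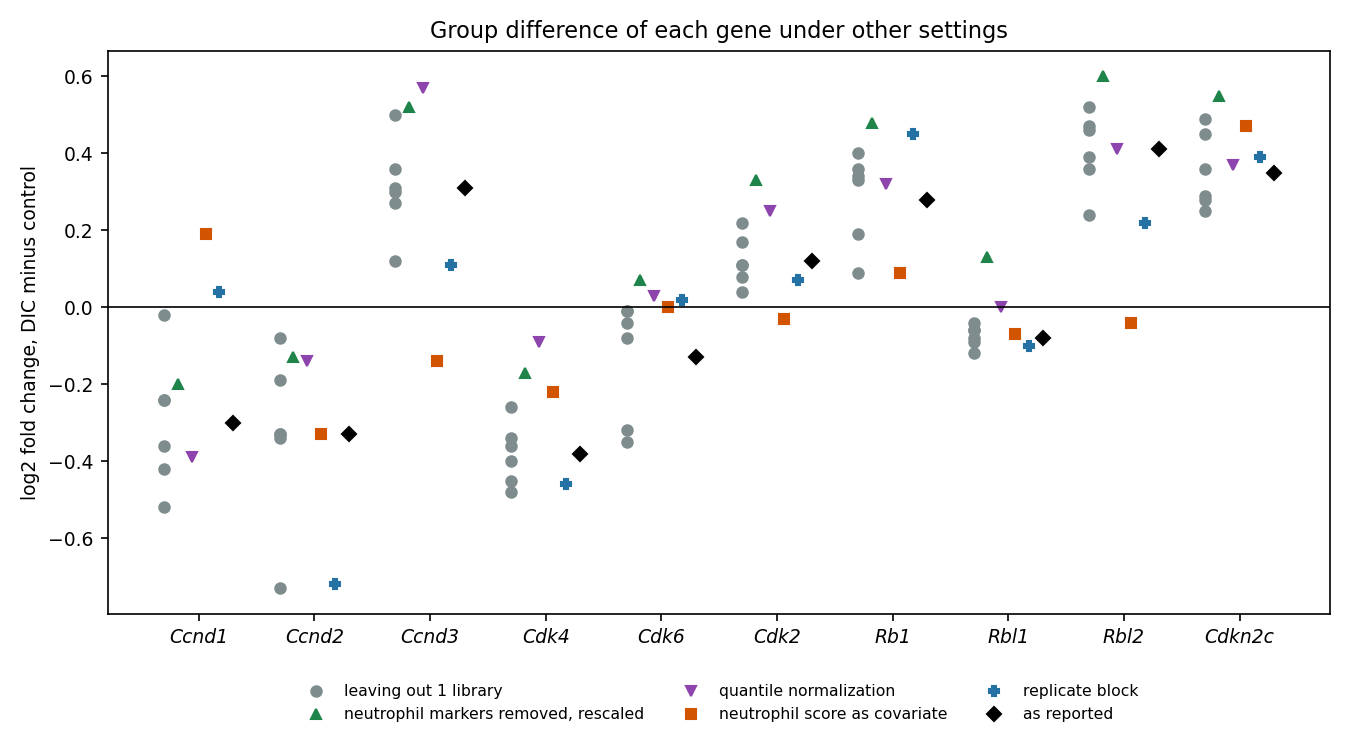
Log2 fold change of each of the 10 genes as reported (black diamonds), without each library in turn (grey) and under other scalings, a neutrophil covariate and a block by column number. Rb1 and Cdkn2c stay above 0 and Cdk4 and Ccnd2 below 0 in all settings drawn, while Ccnd1, Ccnd3, Cdk6, Cdk2, Rbl1 and Rbl2 have values on both sides of 0.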

How the data were processed

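The authors deposited 1 table of TPM values, rounded to 2 decimals, for 56750 genes and loci in 6 libraries of sorted bone marrow cells. The submitters' processing notes name fastp 0.19.5, HISAT2 2.1.0, StringTie 2.1.2 and GRCm39. TPM keeps no read depth, so depth is unknown and no counting interval is given. Symbols were matched by gene identifier to 52081 rows. The group of every column is clear, but control columns 1 and 4 could not be tied to single samples.

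From these values, genes reaching 1 TPM in 3 or more libraries were tested two-sided with limma 3.58.1 (R 4.3.3) on log2(TPM + 1). The model held the group alone, with a trend of variance on level, Benjamini-Hochberg adjustment and a threshold of 0.05. SE is the moderated standard error. The fit was run on simulated data with independent noise for each gene, which cannot show how it handles shifts shared by many genes. Named genes are the 10 genes and, per list, those past the threshold or otherwise the 2 with the lowest p. For each D cyclin they include the 3 genes of highest r with a mean of at least 10 TPM. Of these, 1 gene is not reported here. Of 189 list entries 187 found a row. The genes and lists were chosen with earlier results of these data known. Promoters are RefSeq's on GRCm38.p6, and exon overlaps come from GENCODE M21 on GRCm38, neither being the submitters' build, so no other coordinates are given.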

Additional observations from a re-analysis of the deposited data

How the results depend on the processing

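None of the 10 genes passed the threshold under any of the alternatives run, which were another pseudocount, 2 filters, 2 scalings, a neutrophil covariate, no variance trend, array weights, a block and leaving out each library (149 values, smallest limma adjusted p 0.0624). All 60 values with 1 library left out kept their sign. Signs turned for Ccnd1 (0.19), Ccnd3 (-0.14), Cdk6 (0.00), Cdk2 (-0.03) and Rbl2 (-0.04) with the neutrophil score as a covariate. They turned for Ccnd2 (0.01) with array weights, for Cdk6 (0.03) and Rbl1 (0.00) after quantile normalization, and for Cdk6 (0.07) and Rbl1 (0.13) after rescaling without neutrophil markers. The cause was not tested. The log2 ratio of Ccnd1 to Ccnd2 differed by 0.03 with a pseudocount of 1 and by -0.68 to 0.35 with 1 library left out, that of Cdk6 to Cdk4 by -0.09 to 0.47 and that of Rb1 to Rbl2 by -0.41 to 0.17.

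The number of tested genes past the threshold, 8 as reported, was 5 with a pseudocount of 0.1, 0 without a filter (3241 at an unadjusted p under 0.05), 0 with the neutrophil covariate (324), and from 0 to 1671 with 1 library left out (0 without DIC 1 or control 4, 20 without DIC 2, 1671 without control 2). Calls were 5 higher and 3 lower as reported, 2 and 3 with the pseudocount of 0.1, 5 and 1 after quantile normalization, 7 and 2 without the trend and 4 and 4 at a filter of 5 TPM. Other pathway genes past the threshold numbered 0, and 0 to 5 with 1 library left out. With the column number as a replicate block, which pairs numbers 1 and 2 alone, 3 genes rose and 5 fell, 0 of the 10 among them, and Ccnd1 was at 0.04 and Cdk6 at 0.02. Same-numbered libraries did not deviate together (r = -0.07 and -0.10), but so few pairs cannot decide whether libraries were paired. Ccnd1 was not tested at a filter of 5 TPM. Depth cannot be judged from TPM.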
